A study of Arabidopsis thaliana with 8 samples.

Results

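The genes described here belong to families that build or remodel the plant cell wall: α-expansins (EXPA), β-expansins (EXPB), expansin-like A proteins (EXLA), xyloglucan endotransglucosylase/hydrolases (XTH), cellulose synthase-like proteins (CSLA, CSLC, CSLD), a galacturonosyltransferase (GAUT) and a pectin methylesterase (PME). They were chosen by gene symbol in the annotation of the array, from probe sets with 1 gene, leaving out EXPA8 and EXPA16. A probe set is the group of short probes that reads a gene on the array. The rule gave 33 genes, each with 1 probe set, of 13350 genes that the annotation names from probe sets with 1 gene. Tests ran over all 22746 probe sets. There were 8 EXPA, 4 EXPB, 3 EXLA, 9 XTH, 2 CSLA, 4 CSLC and 1 each of CSLD, GAUT and PME. No member came from the CESA, CSLB, CSLE, CSLF, CSLG, FLA, AGP or GATL families or carried an XTR symbol, so cellulose synthases and arabinogalactan proteins were not analysed here. All 33 genes matched a RefSeq gene, and all 33 probe set names had the plain ending that the array's maker gives to probe sets designed for a single gene.

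Growing plant cells are held by a wall of cellulose microfibrils tied by xyloglucan and embedded in pectin. Expansins let the wall yield without cutting it, XTH enzymes cut xyloglucan chains and join or hydrolyse them, and CSLC and CSLA proteins make the backbones of xyloglucan and mannan in the Golgi. GAUT proteins include the enzymes that make the pectin homogalacturonan, and pectin methylesterases remove its methyl groups, which changes how stiff the pectin gel is.

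RNA came from whole Arabidopsis seedlings aged 10 days and grown at 22 °C. Wild-type plants (ecotype Col-1) and L20, a single line that overexpresses the wheat transcription factor gene TabZIP6, were sampled before cold and after 6 h at 4 °C. No group was kept at 22 °C for the same 6 h. Changes given as changes with cold therefore cannot be told apart from changes with time of day or age. The labels name neither the promoter nor the background ecotype of L20. Each of the 4 groups had 2 biological replicates on 1 Affymetrix array each, 8 arrays in all. The labels do not say whether these biological replicates were grown apart, so the spread behind each p-value may not cover separate growths. Array medians of the log2 signal ran from 4.95 to 5.05 and upper quartiles from 6.28 to 6.64, the lowest of both being replicate 1 of wild type before cold. Of the 24 shoot marker symbols searched, 3 were measured (RCA, LHCB4.1 and LHCB4.2), and their summed linear signal ran from 21199 to 26195 in wild type before cold, 22823 to 29098 in wild type after cold, 21016 to 24524 in L20 before cold and 21681 to 29743 in L20 after cold, with overlap between all groups. Of the single shoot markers, RCA was higher on chilled arrays without overlap in wild type (0.41) and L20 (0.52), LHCB4.2 likewise in L20 (0.28), and LHCB4.2 stood at -0.31 in unchilled L20 relative to wild type without overlap; their part in the results was not tested. The root marker PYK10, 1 of 18 searched, was at 8.76 and 9.04 (log2 signal) in wild type before cold and at 9.32 and 9.60 in L20 before cold, and the part of this in the differences between the lines was not tested. After cold it was at 9.38 and 8.51 in wild type and 9.37 and 8.69 in L20. For flowers and seeds, 1 of 21 markers was measured, OLEO3, at 3.59 to 3.91 on all arrays.

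Estimates of at least 1.5-fold were found for 8 of the 33 genes with cold in wild type (9.53% of all probe sets), 8 with cold in L20 (13.4%) and 6 between the lines before cold (8.48%), and few of these passed the test. Calls come from limma with an adjusted p under 0.05 over all probe sets. In L20 after cold 1 member passed, EXPB3, against 0.378% of all probe sets, and 4 did at an unadjusted p under 0.05 (9.73%). A fit that also held a term for replicate number, called the replicate block, passed 3 members there, EXPB3, XTH32 and EXPA4 (2.55%). Cold in wild type gave 0 members by limma (0.532% of all probe sets), 0 with the replicate block (1.57%) and 7 at an unadjusted p under 0.05 (6.63%). L20 against wild type before cold also gave 0 by limma (0.0176%), 0 with the replicate block (0.167%) and 5 at an unadjusted p under 0.05 (5.54%). After cold the lines differed in 0 members by limma, with and without the replicate block and at an unadjusted p under 0.05. Of all probe sets, 0% passed in either fit and 0.0835% at an unadjusted p under 0.05. For the difference of the cold responses the limma count was 0 in both fits (0% of all probe sets), with 1 member, EXLA1, at an unadjusted p under 0.05 (2.18%). All arrays hold RNA of whole seedlings, in which fewer cells of a type and less RNA per cell cannot be told apart.

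**Figure D1:**
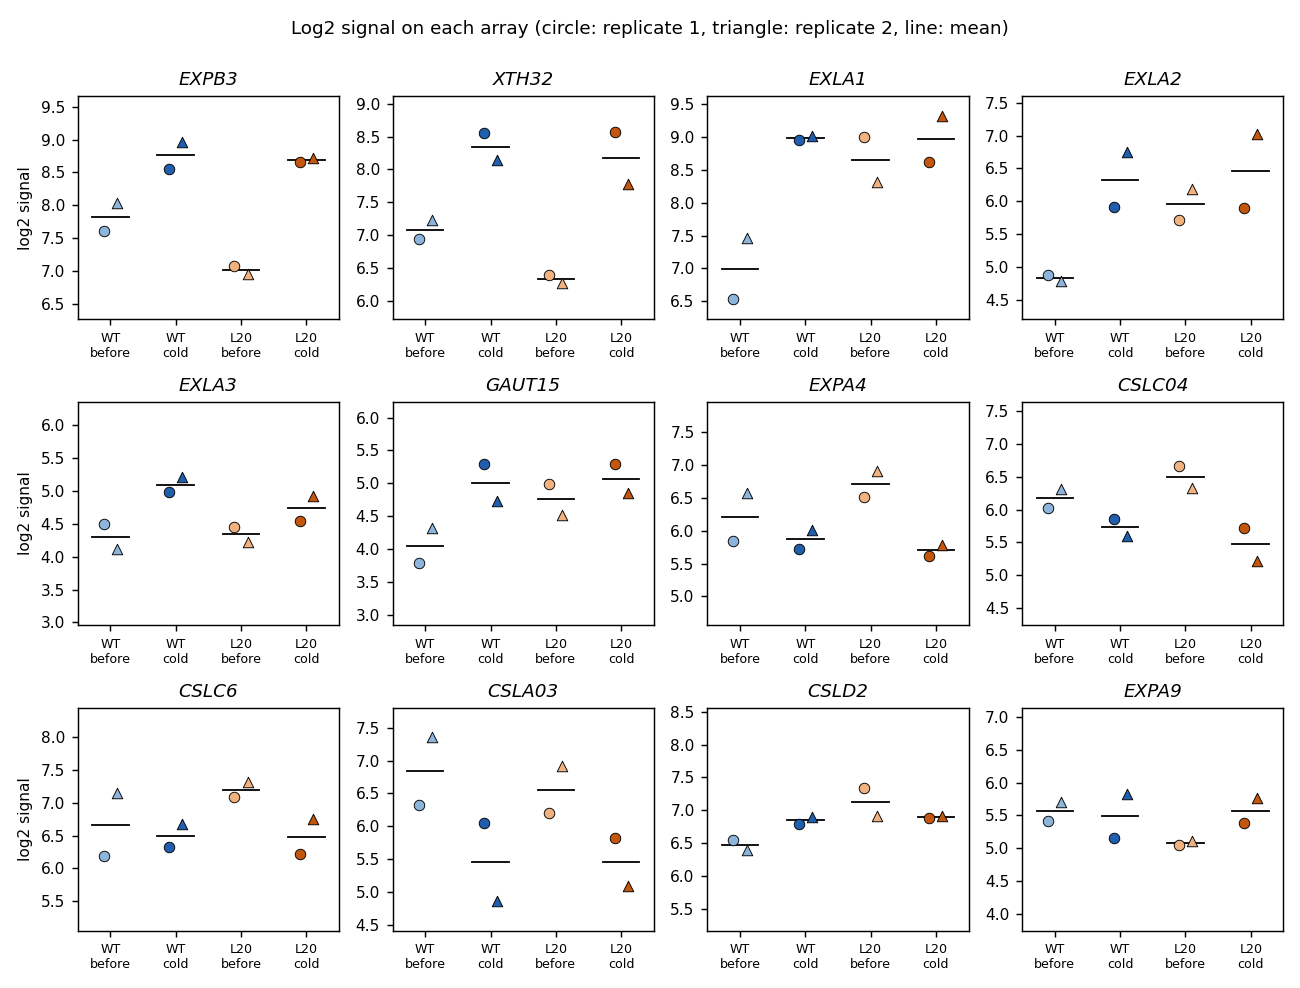
Log2 signal (vertical axis, a span of equal height in every panel) of 12 genes on each of the 8 arrays, by group on the horizontal axis; circles are replicate 1, triangles replicate 2 and lines the mean of both. EXPB3 and XTH32 sit lowest in L20 before cold and higher in both lines after cold, while EXLA1 and EXLA2 sit lowest in wild type before cold.

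The β-expansin gene EXPB3 (AT4G28250) was at 7.61 and 8.04 (log2 signal, replicates 1 and 2) in wild type before cold and at 8.55 and 8.97 after it. In L20 it was at 7.08 and 6.95 before cold and at 8.66 and 8.72 after it. Both unchilled L20 arrays were the lowest of the 8, and in each line the chilled arrays lay above the unchilled ones with no overlap. EXPB3 rose 3.19-fold with cold in L20 (log2 change 1.68 ± 0.22, SE). The limma adjusted p was 0.0436 without the block and 0.0138 with it, and the change was 1.58 and 1.77 in the replicates. The call was lost whichever single array of the 8 was left out (limma adjusted p from 0.0680 to 0.264), with the log2 change between 1.61 and 1.74. In wild type the change was 0.93 ± 0.22 (limma adjusted p = 0.229). Before cold L20 stood at -0.81 ± 0.22 relative to wild type (limma adjusted p = 0.533), and after cold both lines overlapped. The cold response of L20 minus that of wild type was 0.74 ± 0.31 (limma adjusted p = 1.00), with 0.65 and 0.84 in the replicates. The comparisons of cold in L20 and of the lines before cold share the unchilled L20 arrays, so these values are not separate evidence.

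The other β-expansin genes, EXPB1, EXPB2 and EXPB5, had cold changes between -0.16 and 0.18 in wild type and between 0.06 and 0.16 in L20, and their arrays overlapped between all groups compared.

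The α-expansin gene EXPA4 (AT2G39700) was at 5.84 and 6.58 in wild type before cold, 5.73 and 6.02 after it, 6.52 and 6.91 in L20 before cold and 5.61 and 5.78 after it. The unchilled L20 arrays lay above both chilled L20 arrays, while the wild-type arrays before and after cold overlapped. EXPA4 differed with cold in L20 by -1.01 ± 0.29 (limma adjusted p = 0.262) and passed only with the replicate block among the fits on all 8 arrays (limma adjusted p = 0.0408). In the replicates the change was -0.90 and -1.13. Over 23 alternatives its limma adjusted p ran from 0.0121 to 0.699. The wild-type change was -0.34, with -0.11 and -0.56 in the replicates.

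EXPA9 (AT5G02260) was at 5.06 and 5.11 in L20 before cold, below the other 6 arrays, which ran from 5.16 to 5.83. Its difference between the lines before cold was -0.48 ± 0.27 and its cold change in L20 0.49 ± 0.27 (limma adjusted p = 1.00 and 0.704). Both values use the unchilled L20 arrays, so they are not separate evidence. EXPA15 (AT2G03090) was at 7.18 and 7.48 in wild type before cold and at 6.99 and 6.86 after it, a change of -0.40 ± 0.25 (limma adjusted p = 1.00). For the α-expansins as a family, the median cold change was 0.03 in wild type and 0.03 in L20, beside 0.03 and 0.00 over all probe sets. EXPA7 and EXPA18, which act in root hair growth, had cold changes of 0.20 and 0.23 in wild type and of -0.08 and 0.12 in L20, within the spread between replicates.

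The 3 EXLA genes encode proteins with the shape of expansins whose action on the wall is not established. EXLA1 (AT3G45970) was at 6.53 and 7.46 in wild type before cold and at 8.96 and 9.02 after it. In L20 it was at 9.00 and 8.32 before cold and at 8.62 and 9.32 after it. Both unchilled wild-type arrays were below the other 6, and those 6 overlapped between groups. The wild-type cold change was 2.00 ± 0.39, or 3.99-fold (limma adjusted p = 0.136, or 0.0656 in the blocked fit), with 2.43 and 1.57 in the replicates. In L20 it was 0.31 ± 0.39, with -0.37 and 1.00. Before cold EXLA1 differed between the lines by 1.67 ± 0.39, or 3.17-fold (limma adjusted p = 0.412), and after cold by -0.02 ± 0.39. Over 23 alternatives the difference before cold ran from 1.05 to 2.28 and the wild-type cold change from 1.53 to 2.46. The difference of the cold responses was -1.69 ± 0.55 (limma adjusted p = 1.00), with -2.80 and -0.57 in the replicates.

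EXLA2 (AT4G38400) was also lowest in unchilled wild type, with unchilled L20 next. It was at 4.87 and 4.78 in wild type before cold, 5.91 and 6.74 after it, 5.72 and 6.18 in L20 before cold and 5.90 and 7.02 after it. Again the 2 unchilled wild-type arrays were the lowest and the other 3 groups overlapped. Its cold change was 1.50 ± 0.42 in wild type (limma adjusted p = 0.343) and 0.51 ± 0.42 in L20 (0.919), and before cold L20 stood 1.12 ± 0.42 above wild type (0.837). EXLA3 (AT3G45960), the direct neighbour of EXLA1 among protein-coding genes, was at 4.50 and 4.11 in wild type before cold, 4.98 and 5.21 after it, 4.46 and 4.23 in L20 before cold and 4.55 and 4.92 after it. Unlike EXLA1 and EXLA2, its unchilled arrays overlapped between the lines, with a difference of 0.04 ± 0.23. Its cold change was 0.79 ± 0.23 in wild type and 0.39 ± 0.23 in L20 (limma adjusted p = 0.359 and 0.728).

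As a family, the EXLA genes had a median cold change of 1.50 in wild type and 0.39 in L20, beside 0.03 and 0.00 over all probe sets. Their median difference of L20 minus wild type was 1.12 before cold and -0.02 after it, beside 0.04 and 0.00 over all probe sets. The wild-type cold change and the difference before cold share the unchilled wild-type arrays, so they are not separate evidence. All 3 were higher in chilled than in unchilled wild type without overlap, against 16.9% of all probe sets. Without replicate 2 of chilled L20 the median cold change in L20 was -0.03 and the median difference after cold -0.43, and without replicate 2 of unchilled wild type in the blocked fit the median difference before cold was 0.68. With 3 genes, 0 passed by limma in any of the 5 comparisons, with or without the replicate block, and in wild-type cold all 3 had an unadjusted p under 0.05 (6.63% of all probe sets).

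Among the XTH genes, XTH32 (AT2G36870), of the group of the family that holds the known xyloglucan hydrolases, was at 6.95 and 7.22 in wild type before cold and at 8.55 and 8.14 after it. In L20 it was at 6.39 and 6.27 before cold and at 8.56 and 7.78 after it. Its order of groups was that of EXPB3, with the unchilled L20 arrays lowest, then unchilled wild type, and the chilled arrays of both lines above them and overlapping each other. XTH32 was 3.59-fold higher with cold in L20 (1.84 ± 0.29), which missed by limma (adjusted p = 0.0703) and passed with the replicate block (0.0253). It was 2.40-fold higher in wild type (1.26 ± 0.29, limma adjusted p = 0.216, or 0.0788 in the blocked fit). Before cold the lines differed by -0.76 ± 0.29 (limma adjusted p = 0.853) and after cold by -0.18 ± 0.29. The cold change in L20 and the difference before cold share the unchilled L20 arrays, so they are not separate evidence. The cold responses differed by 0.58 ± 0.42, with a 95% interval from -0.41 to 1.57.

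XTH16 (AT3G23730) was at 5.64 and 7.10 in wild type before cold, 4.90 and 6.05 after it, 5.57 and 6.80 in L20 before cold and 5.10 and 5.98 after it. The groups overlapped, because replicate 2 stood 0.87 to 1.47 above replicate 1 in every group. Within replicate numbers XTH16 differed with cold by -0.74 and -1.05 in wild type and by -0.46 and -0.82 in L20. The pooled changes were -0.89 ± 0.66 and -0.64 ± 0.66 (limma adjusted p = 1.00 and 0.973). In the blocked fit the adjusted p was 0.0734 and 0.126.

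XTH19 (AT4G30290) was at 6.82 and 6.48 in L20 before cold and at 5.96 and 5.93 after it, with no overlap, a change of -0.71 ± 0.45 (limma adjusted p = 0.792). Its unchilled wild-type arrays were far apart, at 5.94 and 7.48. XTH18, its direct neighbour among protein-coding genes, overlapped between all groups, with cold changes of -0.30 ± 0.80 in wild type and -0.19 ± 0.80 in L20. XTH20, XTH21, XTH26, XTH29 and XTH33 had cold changes between -0.13 and 0.33 in wild type and between -0.29 and 0.21 in L20. The median over the 9 XTH genes was -0.05 with cold in wild type and -0.01 in L20, beside 0.03 and 0.00 over all probe sets, and XTH32 was the highest of the 9 in both lines. Without replicate 2 of unchilled wild type the wild-type median was 0.25.

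**Figure D2:**
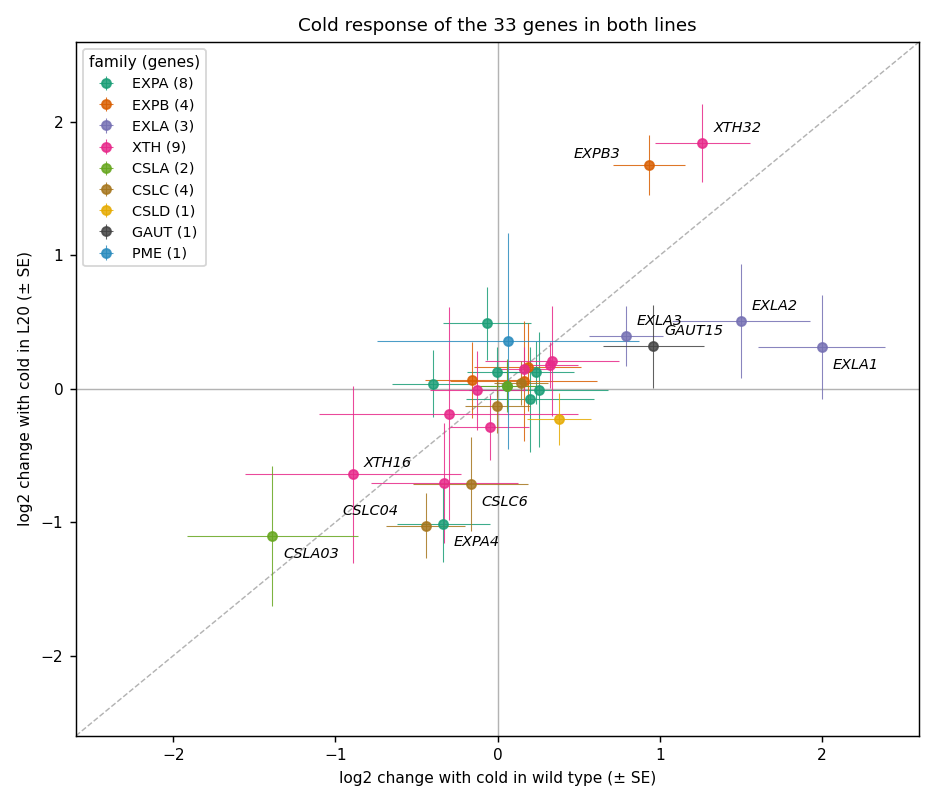
Log2 change with cold in wild type (horizontal axis) against L20 (vertical axis) for the 33 genes, coloured by family, with standard errors from limma and a dashed line of equal change. EXPB3 and XTH32 lie above the dashed line at 1.68 and 1.84 in L20, EXLA1, EXLA2 and GAUT15 lie below it to the right, and most of the other genes cluster around 0.

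None of the polysaccharide synthase genes passed by limma with all 8 arrays, with or without the replicate block. CSLC04 (AT3G28180), which makes the glucan backbone of xyloglucan, was at 6.03 and 6.31 in wild type before cold, 5.86 and 5.60 after it, 6.66 and 6.33 in L20 before cold and 5.71 and 5.22 after it. Chilled arrays lay below unchilled ones in both lines without overlap. Its change was -1.03 ± 0.24 in L20 (limma adjusted p = 0.180, or 0.0615 in the blocked fit) and -0.44 ± 0.24 in wild type (1.00). CSLC6 (AT3G07330) was at 7.08 and 7.32 in L20 before cold and at 6.21 and 6.76 after it, a change of -0.71 ± 0.35 (limma adjusted p = 0.629). In wild type its arrays overlapped, at 6.19 and 7.15 before cold and 6.32 and 6.68 after it. CSLC5 and CSLC12, of the same family, had changes between -0.13 and 0.14 in the lines. Over the 4 CSLC genes the median was -0.08 with cold in wild type and -0.42 in L20, and the latter was -0.71 with the lower 30% of probe sets left out, which dropped CSLC12.

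CSLA03 (AT1G23480), of the mannan synthase family, was at 6.33 and 7.36 in wild type before cold, 6.04 and 4.86 after it, 6.19 and 6.92 in L20 before cold and 5.82 and 5.09 after it. Every chilled array was below every unchilled one, and the replicates disagreed on the size. Within replicates 1 and 2 the change was -0.28 and -2.49 in wild type and -0.37 and -1.83 in L20. The pooled changes were -1.39 ± 0.53 and -1.10 ± 0.53 (limma adjusted p = 0.633 and 0.602). The other CSLA gene, CSLA01, differed with cold by 0.06 and 0.02.

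CSLD2 (AT5G16910), a cellulose synthase-like gene known for root hair growth, was at 6.55 and 6.39 in wild type before cold and at 6.80 and 6.90 after it. In L20 it was at 7.34 and 6.91 before cold and at 6.88 and 6.91 after it. The unchilled wild-type arrays were the lowest 2 of the 8, chilled wild type lay below unchilled L20 without overlap, and unchilled L20 stood 0.66 ± 0.20 above them (limma adjusted p = 0.618). The cold change was 0.38 ± 0.20 in wild type and -0.23 ± 0.20 in L20 (limma adjusted p = 0.955 and 0.930), and these differed by -0.60 ± 0.28 (adjusted p = 1.00). The wild-type cold change and the difference between the lines before cold share the unchilled wild-type arrays, so they are not separate evidence.

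Of the pectin genes, GAUT15 (AT3G58790) was at 3.78 and 4.32 in wild type before cold, 5.29 and 4.73 after it, 4.98 and 4.52 in L20 before cold and 5.30 and 4.85 after it. As for EXLA1 and EXLA2, the unchilled wild-type arrays were the lowest 2 and the other groups overlapped. The wild-type cold change of GAUT15 and its difference between the lines before cold share those 2 arrays and are not separate evidence. GAUT15 was 1.95-fold higher with cold in wild type (0.96 ± 0.31, limma adjusted p = 0.470) and 1.63-fold higher in unchilled L20 than in unchilled wild type (0.71 ± 0.31, adjusted p = 0.923). Over 23 alternatives the first change ran from 0.45 to 1.47 and the second from 0.19 to 1.22, both ends being the blocked fit without 1 of the unchilled wild-type arrays. PME61 (AT3G59010) was at 5.84 and 4.42 in wild type before cold, 6.13 and 4.26 after it, 5.29 and 4.33 in L20 before cold and 5.92 and 4.41 after it. It split by replicate number in every group, by -0.96 to -1.87, and its cold changes of 0.06 and 0.36 (± 0.81) were within that spread.

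Counted over all members, 8 were higher and 4 lower in chilled than in unchilled wild type without overlap of arrays, 24.2% and 12.1% of the 33, against 16.9% and 12.3% of all probe sets. In L20 these counts were 7 and 5, or 21.2% and 15.2%, against 15.4% and 18.1%. The shares were near those of all probe sets in both lines. The median change over the 33 genes was 0.06 in wild type and 0.04 in L20.

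Between the lines before cold, 6 members were higher in L20 without overlap (EXLA1, EXLA2, GAUT15, CSLD2, CSLC04 and CSLA01) and 3 lower (EXPB3, XTH32 and EXPA9), or 18.2% and 9.09%, against 17.4% and 10.3% of all probe sets. After cold, 1 was higher (EXPA24) and 3 lower (EXLA3, XTH19 and CSLC12), against 8% and 6.81%. EXPA24 and CSLC12, and CSLA01 among those named before cold, were dim and lay in the lower 30% of probe sets. The largest estimate between the lines was 1.67 before cold, for EXLA1, and -0.44 after cold, for XTH19. The median size of the difference, without sign, was 0.21 over the members before cold and 0.11 after it, beside 0.16 and 0.09 over all probe sets. After cold the 95% interval of the difference lay within 2-fold in either direction for 23 of the 33 genes, and for the other 10 the arrays do not bound the difference that closely. For the difference of the cold responses, 14 members had a negative and 6 a positive sign in both replicate numbers, or 42.4% and 18.2%, against 30.1% and 21.4% of all probe sets. That comparison uses the same unchilled arrays as the comparison of the lines before cold.

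**Figure D3:**
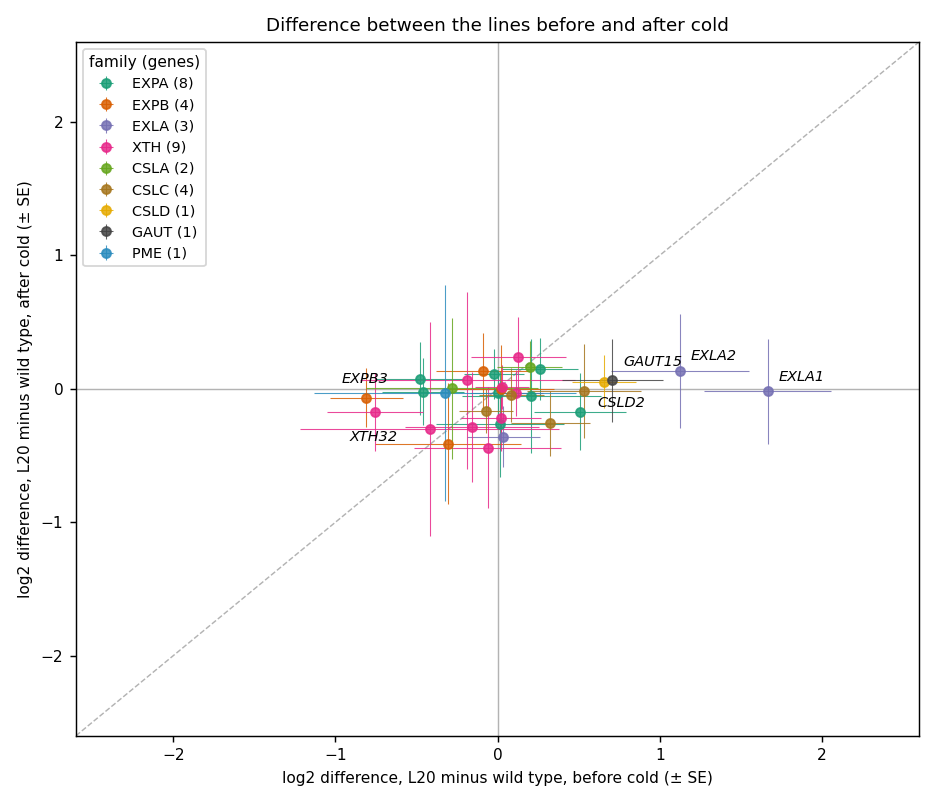
Log2 difference of L20 minus wild type before cold (horizontal axis) against after cold (vertical axis) for the 33 genes, coloured by family, with standard errors from limma and a dashed line of equal difference. The genes spread from -0.81 (EXPB3) to 1.67 (EXLA1) before cold and from -0.44 to 0.24 after it.

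Replicate number separated several members more than cold or genotype did. For 13 of the 33 genes, or 39.4%, replicate 2 minus replicate 1 had the same sign in all 4 groups, against 41.2% of all probe sets. In 11 genes the mean difference between the replicate numbers was larger than the whole range of the 4 group means. This count was not made over all probe sets, so it shows nothing particular to these genes. PME61 stood lower in replicate 2 by 0.96 to 1.87 and XTH18 by 0.56 to 1.95. XTH16 (1.18 ± 0.12), EXPA20 (0.74 ± 0.10) and EXPA7 (0.67 ± 0.10) stood higher there in the fit with the block (limma adjusted p = 0.00377, 0.00693 and 0.00963). In that fit the replicate number passed for 8 of the 33 genes, or 24.2%, against 17.8% of all probe sets (limma adjusted p under 0.05). What the replicate numbers stand for is not in the labels. EXPB3, XTH32 and EXLA1 did not have the same sign in all 4 groups. EXPA4, which passed with the replicate block, did have it, with replicate 2 higher by 0.17 to 0.74.

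**Figure D4:**
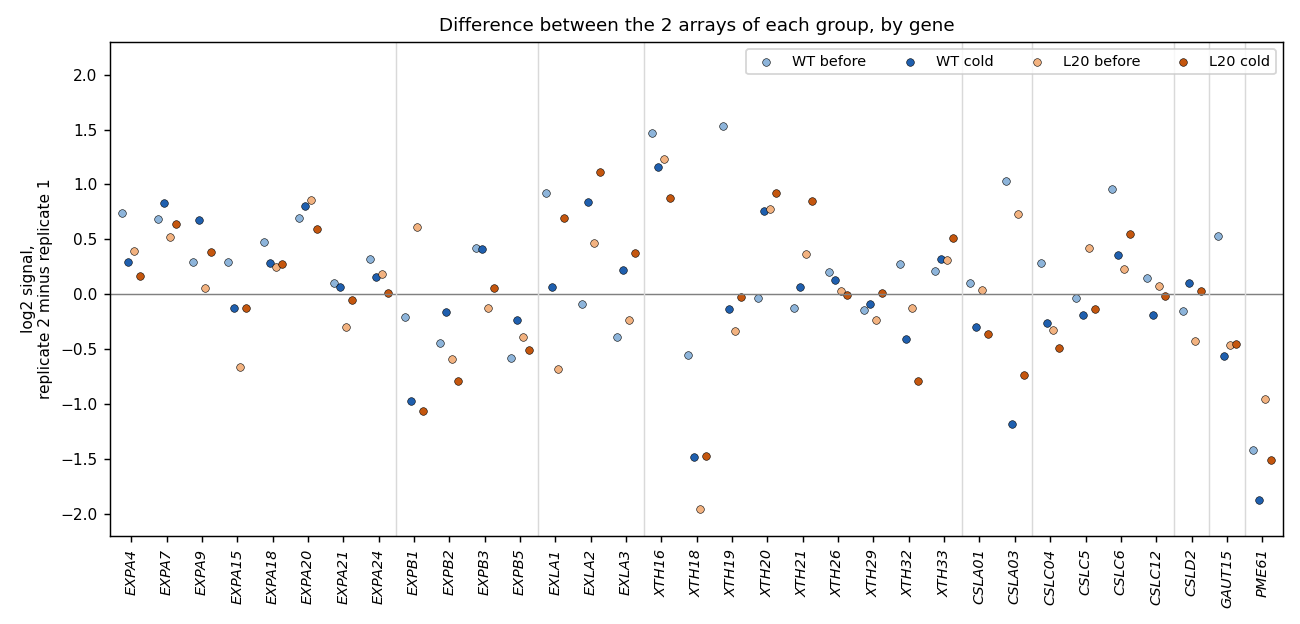
Log2 signal of replicate 2 minus replicate 1 in each of the 4 groups (points, coloured by group) for the 33 genes, ordered by family with grey lines between families. PME61 and XTH18 lie below 0 and XTH16, EXPA20 and EXPA7 above it in all groups, while EXLA1, XTH32 and CSLA03 lie on both sides.

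Other wall genes were searched by name from 8 lists, of which 6 had measured genes, 15 in all. Most names searched matched no probe set with 1 gene. These included all 13 for xyloglucan synthesis and trimming and all 21 secondary wall transcription factors. The counts below hold only for the 15 genes found. By limma 0 of the 15 passed in any of the 5 comparisons. At an unadjusted p under 0.05 there were 2 with cold in wild type (6.63% of all probe sets), 4 with cold in L20 (9.73%), 2 between the lines before cold (5.54%), 0 after cold (0.0835%) and 1 for the difference of the cold responses (2.18%). With the replicate block, which passed 1.57% of all probe sets with cold in wild type and 2.55% in L20, 1 gene passed upwards with cold in both lines. This was GH9C2, which encodes an endoglucanase, at 1.15 ± 0.23 in wild type and 1.62 ± 0.23 in L20 (limma adjusted p with the block 0.0246 and 0.00940). THE1, a receptor kinase that senses wall integrity, passed downwards with cold in L20 with the block (-1.38 ± 0.30, limma adjusted p = 0.0214), and FER, of the same receptor family, stood at -0.58 ± 0.23 (0.236). All SEs in this paragraph come from the fit without the block. In that fit the limma adjusted p with cold in L20 was 0.154 for THE1 and 0.478 for FER. Before cold THE1 and FER stood 0.84 ± 0.30 and 0.83 ± 0.23 above wild type in L20 (limma adjusted p = 0.814 and 0.549 without the block). These differences and the cold changes in L20 share the unchilled L20 arrays, so they are not separate evidence. The pectin methylesterase gene PMEPCRF stood at 0.92 ± 0.23 with cold in wild type and at 0.65 ± 0.23 in L20 (limma adjusted p = 0.260 and 0.394 without the block). The 4 xylan, 3 lignin and 2 nucleotide sugar genes gave 0 calls in either fit and 0 at an unadjusted p under 0.05 in every comparison.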

How the data were processed

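The authors deposited 1 table of log2 values for 22810 probe sets on 8 arrays; RMA, a method that subtracts background, brings all arrays to the same distribution and combines probes, is named by the submitters' processing notes. The deposited arrays do not share 1 distribution exactly, since their upper quartiles differ. Control probe sets, 64 in number, were dropped. Genes were named from the platform annotation and matched to RefSeq (TAIR10.1) by Entrez identifier. limma 3.58.1 in R 4.3.3 was fitted with a mean per group over all 22746 probe sets (two-sided, eBayes, Benjamini-Hochberg). The code was checked on simulated arrays with independent noise. Those lacked the replicate effect of the real arrays, so they do not test the fit under it. Unless stated, p-values are limma's and SEs come from the fit without the block.

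The members and lists were chosen with earlier results of these data known. Per comparison the rule for naming took members called with or without the block, then up to 6 per direction by smallest p among those without overlap, and the member of highest mean in each family. Replicate 1 minus replicate 2 correlated between every pair of the 4 groups, at 0.341 to 0.837, so the numbers were treated as a shared batch, a pairing from the data, and the blocked value is given where it changes a call. Alternatives were the block, trend and robust settings, a filter on the lower 30% of probe sets, renormalization, median centring, fits on 2 groups and leaving out arrays. Leaving out arrays from the blocked fit was added after seeing the data. The number of arrays limits the precision.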

Additional observations from a re-analysis of the deposited data

Results flagged for a closer look

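The root hair expansin gene EXPA7 was 0.13 and 0.27 higher on chilled than on unchilled wild-type arrays of the same replicate number. In L20 it differed by -0.14 and -0.02. The signs were opposite between the lines. Replicate 2 stood 0.67 above replicate 1, which is more than any of these changes. An offset shared by the groups cancels out of changes within a replicate number, so it does not measure their spread. The labels do not state a pairing. The cold response of L20 minus that of wild type was -0.28 ± 0.56 (log2, SE, limma adjusted p = 1.00), and with the replicate block its SE was 0.20 (adjusted p = 0.962).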

How the results depend on the processing

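For cold in L20 the count of 1 member, EXPB3, became 3 with the replicate block, 2 after renormalizing the arrays to the same quantiles (EXPB3 and XTH32), 0 with trend and robust settings and 0 with only the 2 groups compared in the fit, and it was 0 to 0 when any 1 of the 8 arrays was left out. With the replicate block and 1 array left out, an alternative chosen after seeing the data, it ran from 0 without either chilled array of L20 or wild type to 6 without either unchilled wild-type array. In that same setting cold in wild type ran from 0 to 3 members (3 without either unchilled wild-type array, a different set in each case, and EXLA1 alone without either unchilled L20 array), and L20 against wild type before cold ran from 0 to 1 (GAUT15 without replicate 2 of unchilled wild type, EXLA1 without replicate 2 of unchilled L20). The counts of 0 after cold and for the difference of the cold responses were 0 under every alternative run, and the replicate block changed no other call among the members. In the blocked fits without 1 array, calls over all probe sets were also most numerous for cold in both lines without an unchilled wild-type array. Before cold they were most numerous without replicate 2 of unchilled wild type, then without replicate 2 of unchilled L20. These fits leave 1 array in a group, and their member counts alone show nothing particular to these genes. The causes of the changed counts were not tested. Of 1039 values of named members under the alternatives, 12 changed sign, all of them uncalled: for the difference of the cold responses, leaving out 1 array gave -0.64 to 1.23 for PME61, -0.48 to 0.98 for XTH16 and -0.026 to 0.29 for EXPA24, and with the block -0.027 to 0.62 for PME61, while the cold change of XTH21 in wild type ran from -0.40 to 0.15 with the block, at 0.025 without replicate 2 of chilled wild type. Of 1026 family medians under the alternatives, 45 moved by more than the median SE of the family: 3 with the lower 30% of probe sets left out and the others without 1 array. Renormalizing raised the calls over all probe sets from 121 to 183 with cold in wild type, from 86 to 204 in L20 and from 4 to 17 between the lines before cold. The probe set of smallest mean changed nothing, since each gene had 1. The filter on dim probe sets kept 26 of the 33 genes and left out EXPA18, EXPA24, XTH21, XTH26, XTH29, CSLA01 and CSLC12. With 2 arrays a group an exact two-sided permutation test cannot go below p = 0.333, and background per probe was not analysed here.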
